A study of Mus musculus with 2 samples.

Results

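Podoplanin, reelin and 7 further genes of the lymphatic endothelial surface and of the reelin pathway were followed in RNA from embryonic mouse skin. The genes were picked by symbol, as lymphatic surface or secreted markers (Pdpn, Thy1, Gpr182, Mmrn1, Fgl2), the ligand reelin (Reln), its receptors (Vldlr, Lrp8) and the adaptor of those receptors (Dab1). All 9 symbols were found among the 24319 rows of the deposited lists, and all 9 reached 1 FPKM (fragments per kilobase of transcript, relative to all mapped fragments) in at least 1 library. The study has 2 libraries of lymphatic endothelial cells (LECs) from C57BL/6 skin at stage E15.5. The Dot1l knockout library is labelled as carrying an endothelial deletion of Dot1l, the enzyme that methylates lysine 79 of histone H3, and the control library is labelled wild type. Each was made from RNA pooled over 2 to 3 biological replicates. The Cre driver, the deleted exons and the way the cells were purified are not stated in these sources, and a culture protocol for dermal LECs is attached to both samples. The design asks how loss of DOT1L from endothelium bears on the LEC transcriptome.

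Podoplanin is a sialylated mucin-type glycoprotein of the LEC surface. Its binding to the platelet receptor CLEC-2 keeps lymphatic vessels separate from blood vessels in the mouse embryo. Reelin is a large secreted glycoprotein best known for positioning neurons in the developing brain. It binds the lipoprotein receptors VLDLR and ApoER2 (the product of Lrp8), which pass the signal to DAB1 through phosphorylation by Src family kinases, and in mouse skin it is made by LECs and has been linked to the maturation of collecting vessels.

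The starting regions of Reln and Pdpn are shown because these genes had the largest and the smallest log2 differences among the 7 genes lower by 2-fold or more in the library labelled Dot1l knockout, and their sequences are unlike. Of the 9 genes, 7 had an entry in the RefSeq promoter table (build GRCm38.p6), and 4 of these (Reln, Pdpn, Fgl2 and Vldlr) had a start within 100 bases of the start of the GENCODE M21 gene. The 250 bases before the start are given 5′ to 3′ on the gene's strand, which is the minus strand for both genes, with motif matches in capitals. Those of Reln lie at chr5:22344706-22344955 and those of Pdpn at chr4:143299565-143299814.
Reln: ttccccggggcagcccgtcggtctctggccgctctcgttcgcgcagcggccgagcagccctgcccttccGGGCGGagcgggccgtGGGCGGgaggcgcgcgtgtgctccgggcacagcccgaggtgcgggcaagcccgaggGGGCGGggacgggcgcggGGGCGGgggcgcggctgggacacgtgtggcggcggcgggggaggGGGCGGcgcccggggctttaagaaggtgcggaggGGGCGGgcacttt
Pdpn: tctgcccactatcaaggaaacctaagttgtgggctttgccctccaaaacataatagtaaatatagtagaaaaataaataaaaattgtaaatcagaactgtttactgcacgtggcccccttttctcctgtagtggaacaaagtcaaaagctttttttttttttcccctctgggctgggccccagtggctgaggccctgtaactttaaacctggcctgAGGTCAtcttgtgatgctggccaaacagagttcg
The Reln sequence was 80.0% G and C with 37 CpG dinucleotides, and the Pdpn sequence 43.2% with 2, against a median of 52.4% and 6 CpG dinucleotides over 32851 promoters. The capitals in Reln are 6 GC boxes (GGGCGG, either strand), a motif present in 32.7% of all promoters, and those in Pdpn are 1 nuclear receptor motif (AGGTCA, either strand), present in 14.0%. Of the other motifs searched on both strands, CCAAT was held by 33.8% of promoters. The share was 12.4% for TATAAA. It was 19.7% for the ETS motif GGAAGT. The SOX motif AACAAT was held by 9.42% of promoters. The AP-1 motif TGANTCA was held by 6.75%. None of these 5 motifs occurred in either window, and no matches overlapped. Upstream of Fgl2 (49.6% G and C, 10 CpG dinucleotides) and of the Vldlr entry at the gene start (41.6%, 5 CpG dinucleotides) the composition lay nearer to that of Pdpn. Another Vldlr entry, 536 bases from the gene start, was richer, at 66.4% G and C with 18 CpG dinucleotides.

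Libraries were compared on the log2(FPKM + 1) scale, library labelled Dot1l knockout minus control, which understates the change of genes of low level. With 1 library per genotype no difference has a replicate check, and no test, SD or p-value is given. Dot1l itself was at 10.4 FPKM in the library labelled knockout and 5.86 FPKM in control, so its level was not lower in that library. The value covers the whole gene and not the deleted part alone, so it checks nothing of the deletion, and the library is called knockout-labelled here. The steps between low values imply about 9100000 fragments in the knockout-labelled library and 10200000 in control, if no further scaling was applied. Small RNA rows held 14.96% of the summed FPKM in the knockout-labelled library and 2.47% in control. Of the 13296 genes that reached 1 FPKM in a library, 15.49% were lower by 2-fold or more and 16.78% higher by as much. Marker lists of other cells differed as well. All 20 macrophage markers were at least 2-fold higher (summed FPKM 4854 in the knockout-labelled library and 66.4 in control, C1qc listed at 0 in control), as were all 10 mast cell markers (12991 and 105, Fcer1a listed at 0 in control). Of 23 pan-endothelial markers 19 were at least 2-fold lower (summed FPKM 504 and 1904), with a median log2 difference of -1.86, and of 18 fibroblast markers 17 were (1116 and 4782), with a median of -1.98. Of 11 lymphatic transcription factors 6 were lower and 2 higher, with a median of -1.34. With the median pan-endothelial gene set to no difference that median was 0.64. The 6 lower were Klf4 (-1.34), Prox1 (-2.10), Nr2f2 (-2.22), Foxc2 (-2.42), Tbx1 (-2.58) and Sox18 (-3.09), of which Klf4 alone lay above the pan-endothelial median. The 2 higher were Gata2 (81.0 and 6.59 FPKM) and Maf (192 and 36.6 FPKM). All 10 pericyte and smooth muscle markers were lower (32.4 and 208). In bulk RNA, fewer cells of a type and less RNA per cell cannot be told apart, and the part of cell composition in the values below was not tested.

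Most of the 9 genes were lower in the knockout-labelled library. By the 2-fold mark 7 were lower (Pdpn, Thy1, Gpr182, Mmrn1, Fgl2, Reln and Vldlr), 1 was higher (Lrp8) and 1 lay within 2-fold (Dab1), beside backgrounds of 15.49% lower and 16.78% higher over all genes. The ratio of deposited FPKM among the 7 ran between 3.18-fold lower for Pdpn and 11.5-fold lower for Gpr182. The median log2 difference of the 9 genes was -1.81, against 0.00 over all genes. When the knockout-labelled library was instead scaled so that the median pan-endothelial gene had no difference, Gpr182 was the single gene still at least 2-fold lower, Lrp8 stayed higher, and the directions of Pdpn and Thy1 turned.

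**Figure D1:**
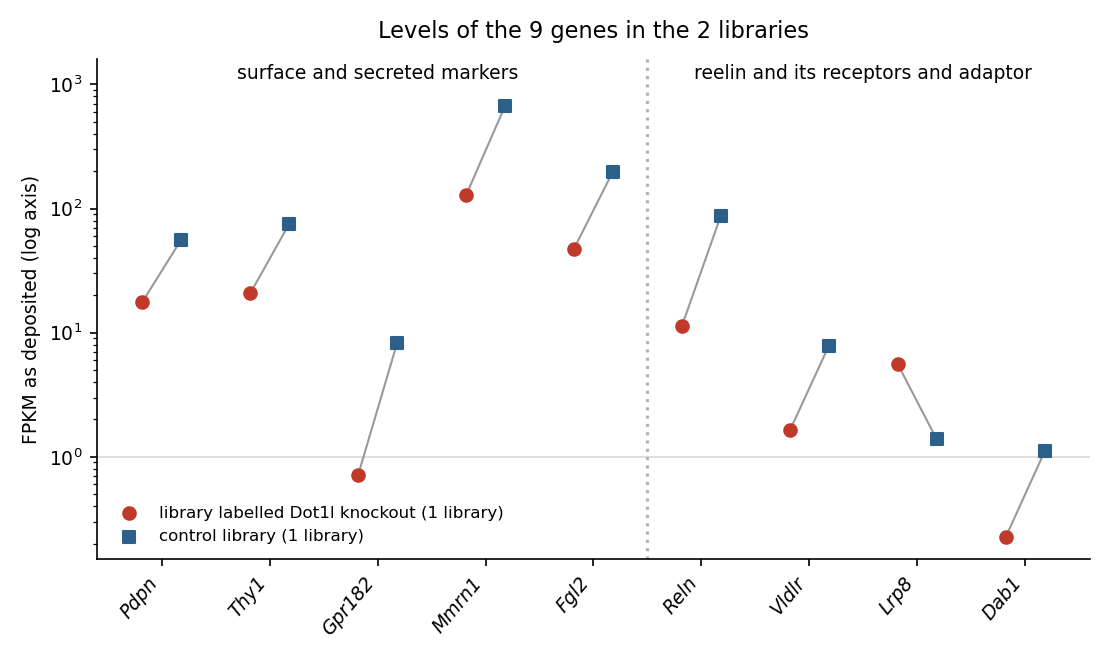
Deposited FPKM of the 9 genes on a log axis, with the knockout-labelled library as red circles and the control library as blue squares, 1 library each, so no error bars can be drawn. In 8 genes the red point lies below the blue square, and in Lrp8 it lies above (5.55 against 1.38 FPKM); relative to the median pan-endothelial gene, Pdpn and Thy1 turn to the other direction.

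Among the surface proteins, Pdpn was at 17.7 FPKM in the knockout-labelled library and 56.1 FPKM in control, a 3.18-fold lower level and a log2 difference of -1.61 that turned to 0.32 under the pan-endothelial scaling. The knockout-labelled library is the low one, and this was the smallest fold among the 7 lower genes. With at least about 90 and 323 fragments behind the values, the 95% counting interval of the fold was 2.52 to 4.08. That interval is an exact binomial (Clopper-Pearson) one that rests on the estimated depths and the shortest RefSeq-linked GENCODE transcript, and it covers counting error only. Thy1, a glycosylphosphatidylinositol-anchored protein found on LECs, fibroblasts and T cells, was at 20.7 FPKM in the knockout-labelled library and 75.1 FPKM in control. It was 3.62-fold lower (counting interval 3.18 to 4.13), with a log2 difference of -1.81 that turned to 0.14 under the pan-endothelial scaling. Of 5 measured T cell and innate lymphocyte markers 1 was lower (Lck, 1.15 and 4.55 FPKM), 1 higher (Il7r, 2.76 and 0.224 FPKM) and 3 within 2-fold. The summed FPKM of the list was 11.5 in the knockout-labelled library and 11.0 in control, with Cd3e listed at 0 in the knockout-labelled library and Cd3d and Cd3g at 0 in control. Fibroblast markers were abundant in both, with Pdgfra, a receptor of dermal fibroblasts, at 10.2 and 42.5 FPKM and the collagen gene Col1a1 at 145 and 268 FPKM.

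Gpr182, an endothelial receptor that scavenges chemokines, had the largest ratio. It was at 0.716 FPKM in the knockout-labelled library and 8.21 FPKM in control, 11.5-fold lower, with about 24 and 315 fragments and a counting interval of 7.71 to 18.5. Its log2 difference of -2.42 is smaller than this ratio would give, because its level in the knockout-labelled library lies under the pseudocount of 1. It was the single one of the 9 genes that stayed at least 2-fold lower under every scaling and pseudocount tried, with log2 differences between -3.35 and -1.21.

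The secreted markers were the most abundant of the 9 genes. Mmrn1 encodes multimerin 1, a matrix and platelet protein used as a LEC marker, and it headed the group in both libraries. Its level was 128 FPKM in the knockout-labelled library and 669 FPKM in control, which placed it at rank 581 and rank 71 among all rows. The level was thus 5.22-fold lower, with a counting interval of 5.06 to 5.38 and a log2 difference of -2.37. Fgl2, a fibrinogen-like protein that also exists as a membrane prothrombinase of macrophages and endothelium, was at 47.6 FPKM in the knockout-labelled library and 199 FPKM in control. It was 4.17-fold lower (3.95 to 4.41), with a log2 difference of -2.04, in the library where all 20 macrophage markers were higher, among them Csf1r at 152 and 1.10 FPKM and Adgre1 at 163 and 0.507 FPKM. Of 8 measured platelet and megakaryocyte markers other than Mmrn1, 5 were at least 2-fold higher and 3 within 2-fold, Vwf at 2.19 and 4.88 FPKM and Clec1b at 0.725 and 1.33 FPKM being the lower of these. Among the higher ones was the integrin Itga2b at 6.41 FPKM in the knockout-labelled library and 0.774 FPKM in control. Also higher were Ppbp at 18.5 and 0.673 FPKM and Pf4 at 1361 and 2.92 FPKM. The summed FPKM of the platelet list was 1395 in the knockout-labelled library, nearly all of it from Pf4, and 13.3 in control. The platelet glycoprotein genes Gp6 and Gp9 were listed at 0 in the knockout-labelled library and Gp6 also in control.

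Reln had the largest log2 difference of the 9 genes. The ligand was at 11.4 FPKM in the knockout-labelled library and 87.5 FPKM in control, a 7.71-fold lower level with a counting interval of 7.24 to 8.21. Its log2 difference was -2.84, and 89 of the 13296 genes (0.669%) were as low or lower. The order of levels changed with it: Reln was the third most abundant of the 9 genes in control and the fifth in the knockout-labelled library, where Thy1 and Pdpn stood above it. Under the pan-endothelial scaling the log2 difference of Reln was -0.93, just inside the 2-fold mark.

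The 2 reelin receptors went opposite ways. Vldlr, which is also expressed in muscle and fat, was at 1.63 FPKM in the knockout-labelled library and 7.83 FPKM in control, 4.81-fold lower with at least about 54 and 293 fragments (counting interval 3.60 to 6.58). Lrp8, which encodes ApoER2, was at 5.55 FPKM in the knockout-labelled library and 1.38 FPKM in control, 4.01-fold higher on about 124 and 35 fragments (2.72 to 5.97). Their log2 differences were -1.75 and 1.46. The order of the receptors was inverted, with a Vldlr to Lrp8 ratio of 0.294 in the knockout-labelled library and 5.66 in control, a comparison within each library that no scaling of a whole library can alter. Their summed level was 7.18 FPKM in the knockout-labelled library and 9.22 FPKM in control. Of 8 measured adipocyte markers 7 were at least 2-fold lower and 1 within 2-fold (summed FPKM of the list 433 and 2179), beside 15.49% of all genes lower. Of 9 measured skeletal muscle markers 4 were lower, 0 higher and 5 within 2-fold (21.2 and 48.6). The part of fat and muscle in the Vldlr value was not tested. Lrp8 is known from neurons and platelets. Of 6 measured neuronal markers 5 were at least 2-fold lower (summed FPKM of the list 28.2 and 159), while Prph, at 2.32 and 0.817 FPKM, was 2.84-fold higher by deposited FPKM and within 2-fold on the log2(FPKM + 1) scale. The platelet list is given above. Their part in the Lrp8 value was not tested.

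Dab1, the adaptor that binds the tails of both receptors, was barely detected. It was at 0.226 FPKM in the knockout-labelled library and 1.10 FPKM in control. The ratio was 4.89-fold lower, yet it rests on as few as about 2 and 12 fragments, and the counting interval reaches between 1.19 and 49.1. On the log2(FPKM + 1) scale the difference was -0.78, within 2-fold, and it passed 2-fold at a pseudocount of 0.1 (-1.89), with both libraries set to a sum of 1000000 (-1.36) and when small RNAs were left out before that (-1.31). At this depth the size of the Dab1 difference was poorly bounded.

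**Figure D2:**
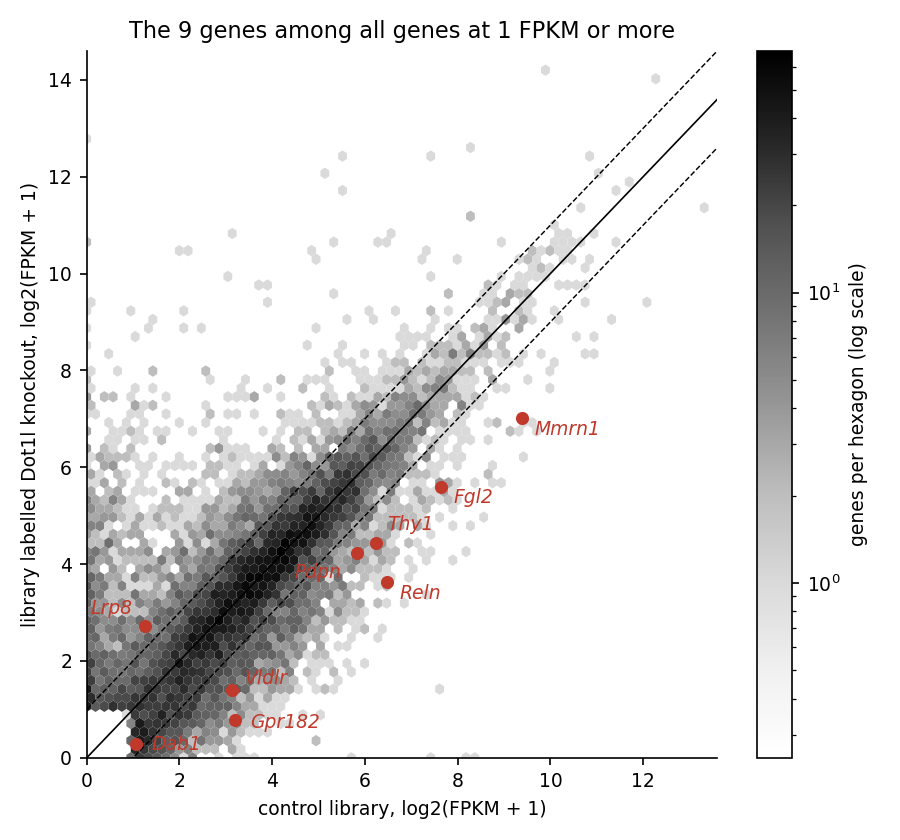
Each hexagon counts genes by log2(FPKM + 1) in the control library (horizontal) and the knockout-labelled library (vertical), for the 13296 genes at 1 FPKM or more in either; the solid line marks equality and the dashed lines 2-fold. Of the 9 genes in red, 7 lie below the lower dashed line and Lrp8 above the upper; scaled to the median pan-endothelial gene, Gpr182 alone would stay below and Pdpn and Thy1 would change direction.

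Of 21 intracellular genes of the pathway, 17 lay within 2-fold, 1 was lower and 3 were higher, beside 67.7% of all genes within 2-fold, 15.49% lower and 16.78% higher. Their median was 0.20, which became -0.14 with both libraries set to a sum of 1000000 and 2.10 under the pan-endothelial scaling. The lower gene was Yes1, a Src family kinase, at 18.9 FPKM in the knockout-labelled library and 71.3 FPKM in control. The kinases that phosphorylate DAB1 in neurons differed less: Fyn was at 31.5 and 44.7 FPKM and Src at 5.63 and 4.48 FPKM. The adaptors Crk (54.6 and 41.5 FPKM) and Crkl (12.8 and 14.0 FPKM), which bind phosphorylated DAB1, also lay within 2-fold, as did the adaptor Nck1 (32.2 and 42.1 FPKM). The 3 higher genes were the small GTPase Rap1b at 263 FPKM in the knockout-labelled library and 98.4 FPKM in control, the dynein regulator Ndel1 at 88.7 and 40.5 FPKM, and Pafah1b3, a subunit of a LIS1-associated acetylhydrolase, at 25.3 and 11.8 FPKM.

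Genes that cleave reelin or control its receptors went both ways. Of 17 measured genes 3 were at least 2-fold lower, 4 higher and 10 within 2-fold. Over all genes the shares were 15.49%, 16.78% and 67.7%. The median of the list was 0.27, which became 0.03 with both libraries set to a sum of 1000000 and 1.96 under the pan-endothelial scaling. Furin, a proprotein convertase, was at 81.4 FPKM in the knockout-labelled library and 6.26 FPKM in control, and Dab2, an endocytic adaptor that binds the same receptor tail motif as DAB1 and is also found in macrophages, was at 332 and 39.3 FPKM. Psen2, a gamma-secretase subunit, was at 49.1 and 10.9 FPKM, and Thbs1, whose product thrombospondin 1 can bind both receptors, at 170 and 72.7 FPKM. Plat, the tissue plasminogen activator that cuts reelin in its C-terminal part, was at 4.12 FPKM in the knockout-labelled library and 19.0 FPKM in control, and Adamts2, a protease that cuts it nearer the N-terminus, at 2.69 and 10.1 FPKM. The third lower gene was the receptor ligand Clu (clusterin), at 1.13 and 5.62 FPKM. Adamts3, the main reelin-inactivating protease of the mouse brain, stayed under 1 FPKM in both (0.912 and 0.624). Mylip, the ubiquitin ligase that sends VLDLR and ApoER2 for degradation, was at 41.8 FPKM in the knockout-labelled library and 20.5 FPKM in control, which falls just short of the 2-fold mark on the log2(FPKM + 1) scale. The receptor chaperone Lrpap1 was at 38.4 and 31.6 FPKM and Dab2ip at 9.20 and 14.9 FPKM.

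**Figure D3:**
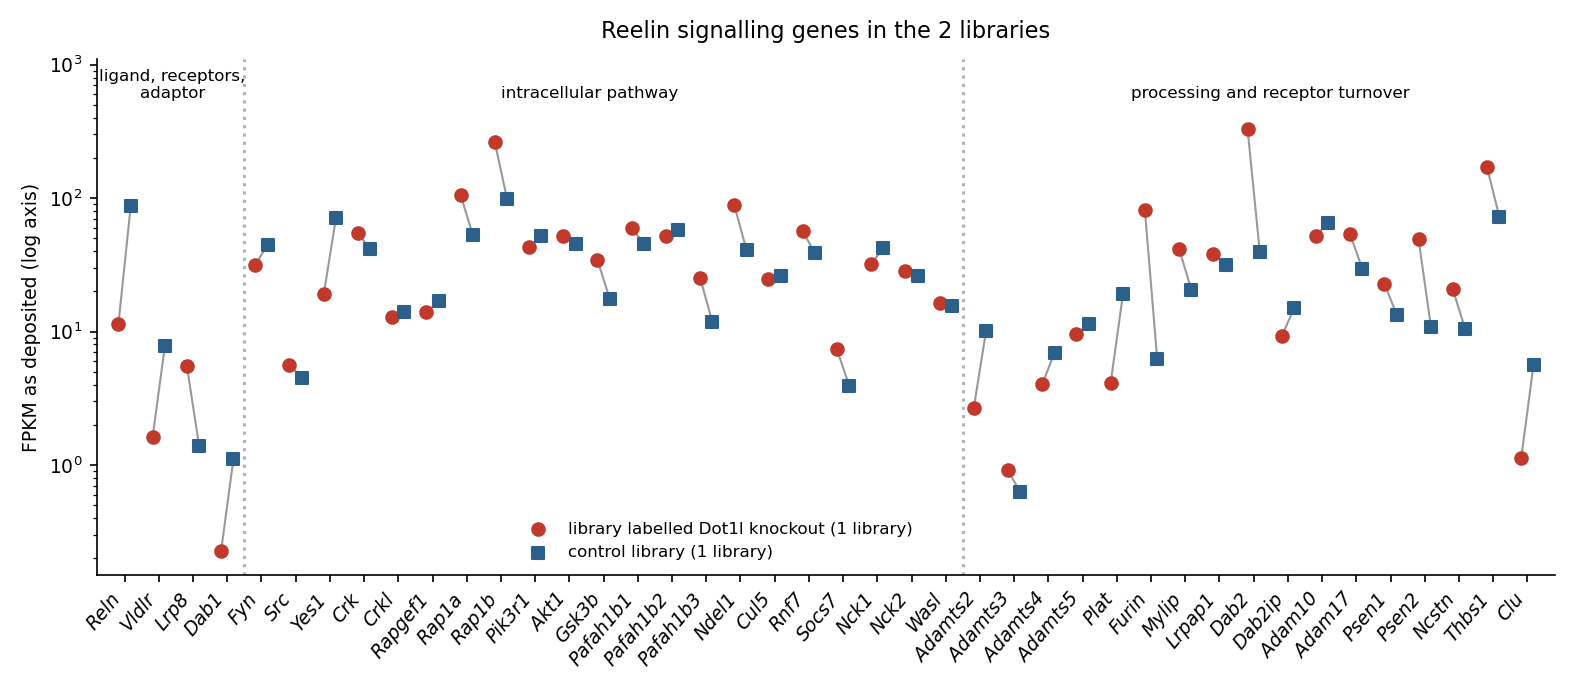
Deposited FPKM on a log axis for reelin, its receptors and adaptor, 21 intracellular pathway genes and 17 genes of processing and receptor turnover, with red circles for the knockout-labelled library and blue squares for the control library (1 library each). The red points of Reln (11.4 FPKM) and Vldlr (1.63 FPKM) lie far below their blue squares (87.5 and 7.83 FPKM). On the log2(FPKM + 1) scale, which is not the one drawn here, 17 of the 21 intracellular genes lie within 2-fold.

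Of 12 measured genes of the LDL receptor family other than Vldlr and Lrp8, 9 were within 2-fold, 1 was lower and 2 were higher, beside 67.7% of all genes within 2-fold, with a median of 0.57 that stayed above 0 under every scaling. Lrp1, a large endocytic receptor also abundant in macrophages and fibroblasts, was at 34.4 FPKM in the knockout-labelled library and 9.29 FPKM in control, and the sorting receptor Sorl1 at 7.37 and 2.04 FPKM. The lower gene was Lrp3, at 0.884 and 2.94 FPKM. Lrp5, a Wnt co-receptor, was at 14.3 and 9.55 FPKM, Lrp10 at 19.8 and 12.6 FPKM, Lrp12 at 16.9 and 8.22 FPKM, and Snx17, which recycles receptors of this family, at 27.9 and 14.4 FPKM. The Vldlr difference of -1.75 lay below those of all 12 of these genes, of which Lrp3 had the lowest (-1.07).

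Of 19 measured partners of podoplanin 12 lay within 2-fold, 1 was lower and 6 were higher, beside 67.7% of all genes within 2-fold. Their median was 0.24, which became -0.19 with both libraries set to a sum of 1000000 and 2.07 under the pan-endothelial scaling. Among the cytoskeletal linkers that bind its tail, ezrin (Ezr) was at 32.8 FPKM in the knockout-labelled library and 24.2 FPKM in control and moesin (Msn) at 201 and 155 FPKM, while radixin (Rdx) was the lower gene at 139 and 288 FPKM. Rhoc, a GTPase of the cytoskeleton, was at 55.3 and 103 FPKM, and the tetraspanin Cd9, which binds podoplanin, at 73.4 and 96.8 FPKM. C1galt1, the enzyme that builds the O-glycans needed for CLEC-2 binding, was at 23.1 FPKM in the knockout-labelled library and 24.8 FPKM in control. The galectins Lgals8, which binds podoplanin glycans, and Lgals3, a gene abundant in macrophages, were at 59.5 and 19.7 FPKM and at 46.5 and 3.07 FPKM. Syk, the kinase downstream of CLEC-2, was at 31.7 and 2.31 FPKM, in the library where macrophage markers, whose cells express Syk, were higher. Clec1b, which encodes CLEC-2, was at 0.725 and 1.33 FPKM, and the podoplanin-binding chemokine gene Ccl21a was listed at 0 in the knockout-labelled library and at 0.538 FPKM in control, where near-identical copies make its reads uncertain.

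Other surface genes of the kind of Thy1 were divided. Of 17 measured Thy1 ligands and anchored proteins 7 were lower, 4 higher and 6 within 2-fold. Over all genes 15.49% were lower, 16.78% higher and 67.7% within 2-fold. The median of the list was -0.44, which became 1.49 under the pan-endothelial scaling. The lower ones were led by members of the Ly6 family and the complement regulator Cd59a: Ly6c1 was at 1.77 FPKM in the knockout-labelled library and 15.9 FPKM in control, Ly6a at 4.59 and 24.3 FPKM and Cd59a at 5.40 and 27.4 FPKM. The higher ones included the leukocyte integrins Itgam (29.6 and 0.322 FPKM) and Itgb2 (20.1 and 0.472 FPKM), which form a Thy1 receptor on myeloid cells, and the proteoglycan Sdc4 (231 and 17.0 FPKM). The vascular Thy1 receptor subunit Itgb3 was at 4.86 FPKM in the knockout-labelled library and 9.43 FPKM in control.

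In the EMILIN and multimerin family, 2 of the 4 relatives of Mmrn1 were lower and 1 was higher. Over all genes 15.49% were lower and 16.78% higher. Mmrn2, the endothelial multimerin, was at 10.2 FPKM in the knockout-labelled library and 44.5 FPKM in control, 4.37-fold lower, and Emilin3 at 1.09 and 4.46 FPKM. Emilin1, which anchors lymphatic vessels to elastic fibres, was at 19.2 and 26.7 FPKM, and Emilin2 was higher at 133 and 29.5 FPKM. Among the atypical chemokine receptors, Ackr3, which clears adrenomedullin and CXCL12, was at 0.645 FPKM in the knockout-labelled library and 6.40 FPKM in control, a profile near that of Gpr182. Ackr1 and Ackr4 were listed at 0 in the knockout-labelled library and under 1 FPKM in control, and Ccrl2, a receptor of activated myeloid cells, was at 31.0 and 0.457 FPKM. In a list of fibrinogen-related genes that also holds 2 Fc receptors, 5 of 12 were lower and 3 higher, beside those all-gene shares. The matrix gene Mfap4 was at 5.04 FPKM in the knockout-labelled library and 54.1 FPKM in control and the angiopoietin-like genes Angptl1 and Angptl2 at 2.75 and 32.1 FPKM and at 3.36 and 23.1 FPKM. The 3 higher genes were the ficolin Fcna (165 and 0.0877 FPKM) and the Fc receptors Fcgr2b (118 and 1.22 FPKM), a receptor of soluble FGL2, and Fcgr3 (555 and 1.70 FPKM), all 3 expressed by macrophages.

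Set beside other surface and secreted genes of lymphatic endothelium, the 9 genes had a median of about the same size. Of 19 such genes 14 were at least 2-fold lower, 3 higher and 2 within 2-fold, beside 15.49% lower and 16.78% higher over all genes. Their median was -1.87, which was 0.071 under the pan-endothelial scaling. Kdr, Tie1, Tek and Ecscr belong to both this list and the pan-endothelial list, so that scaled median is partly fixed by construction. Ptx3, a pentraxin, was at 15.6 FPKM in the knockout-labelled library and 119 FPKM in control, the angiopoietin receptor Tek at 11.0 and 79.5 FPKM, and Clca3a1, a LEC surface protein, at 7.54 and 53.9 FPKM. Higher were the integrin Itga9, at 61.7 FPKM in the knockout-labelled library and 20.5 FPKM in control, and 2 scavenging receptors of endothelium and macrophages, Stab2 at 9.30 and 2.36 FPKM and Stab1 at 231 and 68.6 FPKM. Lyve1, the hyaluronan receptor, was at 552 and 526 FPKM, within 2-fold, and skin macrophages also express Lyve1 and Stab1. Prox1, the LEC fate factor, was at 13.1 FPKM in the knockout-labelled library and 59.3 FPKM in control, and the endothelial adhesion genes Pecam1 and Cdh5 at 49.2 and 218 FPKM and at 34.4 and 227 FPKM. Prox1, Pecam1 and Cdh5 were thus detected in both libraries. Other lymphatic genes lay lower: Foxc2 was at 0.342 FPKM in the knockout-labelled library and 6.16 FPKM in control, and Sox18 at 1.28 and 18.4 FPKM. Detection does not give the share of LECs in a library, which was not tested.

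Relative to the pan-endothelial median of -1.86, the log2 differences of Thy1, Vldlr, Fgl2 and Pdpn stood at offsets of 0.05, 0.11, -0.18 and 0.25. The offsets of Mmrn1, Gpr182 and Reln were -0.51, -0.56 and -0.98, and those of Dab1 and Lrp8 were 1.08 and 3.32. The pseudocount of 1 makes the differences behind these offsets smaller for genes of low level. Under the pan-endothelial scaling itself Mmrn1, Gpr182 and Reln were at -0.39, -1.26 and -0.93, and Dab1 and Lrp8 at -0.15 and 3.28. By distance in the plane of the 2 libraries on the log2(FPKM + 1) scale, the 5 genes nearest to Pdpn were Kitl, Id3, Efnb2, Ckap2l and Pvrl2, and the 5 nearest to Reln were Tspan13, Tek, Ndn, Prkcdbp and Bgn. Kitl, the closest, was at 17.2 FPKM in the knockout-labelled library and 55.6 FPKM in control, and Tspan13 at 10.3 and 87.7 FPKM. A likeness over 2 libraries compares only a level and a difference.

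**Figure D4:**
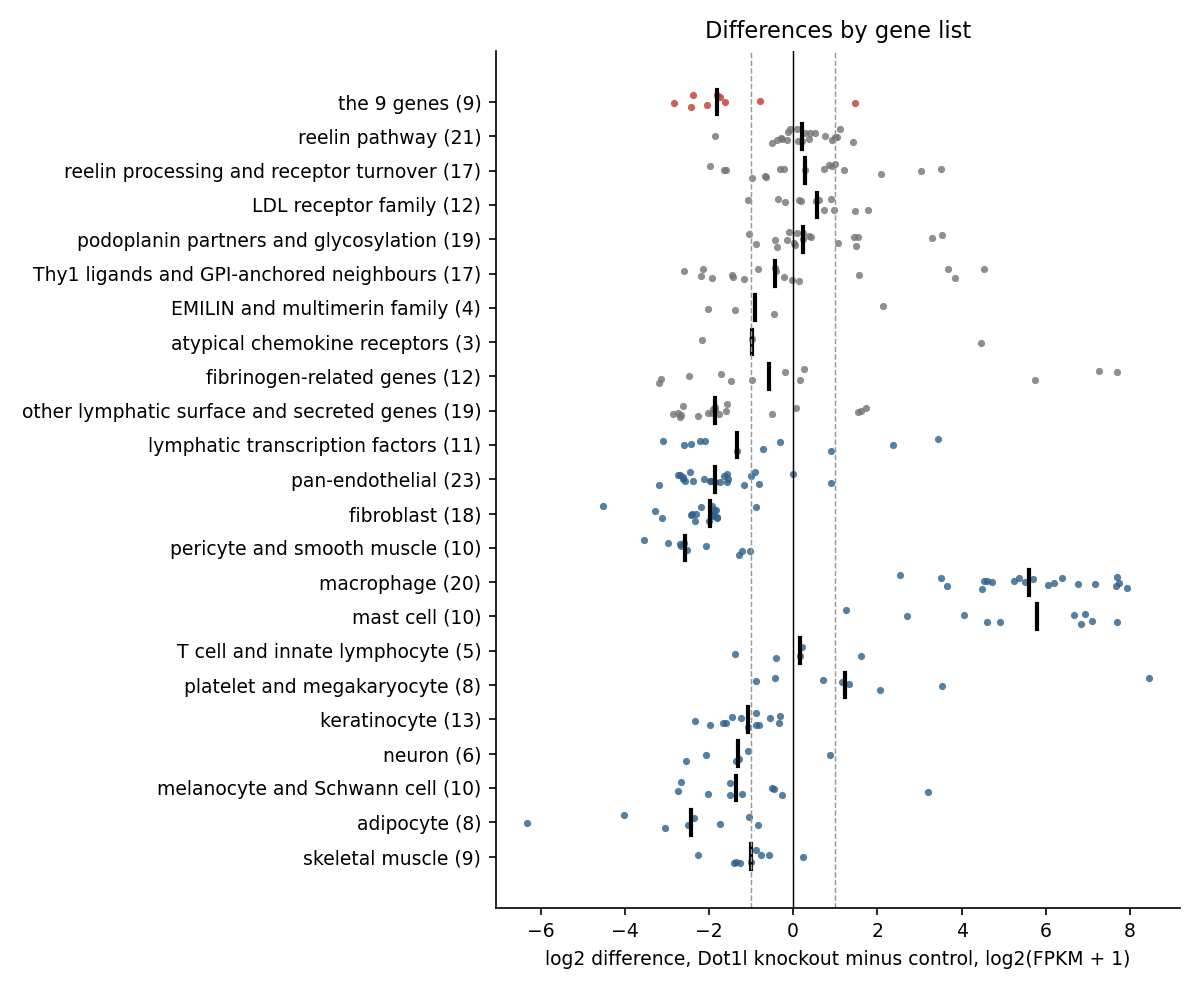
Log2 differences, library labelled Dot1l knockout minus control on log2(FPKM + 1), of the 9 genes (red), of 9 lists of related genes (grey) and of 13 lists of cell type markers (blue), 1 point per measured gene; black bars are medians, dashed lines 2-fold, and the number of genes is in parentheses. The median of the 9 genes, -1.81, stands beside that of pan-endothelial markers (-1.86) and fibroblast markers (-1.98), and the reelin pathway list sits at 0.20; Pdpn and Thy1 turn direction when the pan-endothelial median is set to 0.

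The differences of the 9 genes kept their sign under the pseudocounts and the scalings by sum, upper quartile, median gene and sum without small RNAs. Pdpn, Thy1, Gpr182, Mmrn1, Fgl2 and Reln stayed past 2-fold in all of these, and Reln ranged between -3.24 and -2.50. Vldlr ranged between -2.28 and -0.95, falling short of 2-fold at a pseudocount of 5, and Lrp8 between 0.73 and 1.93. Setting both libraries to a sum of 1000000 changed the background to 25.2% lower and 14.2% higher, and the pan-endothelial scaling to 1.99% and 76.7%.

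**Figure D5:**
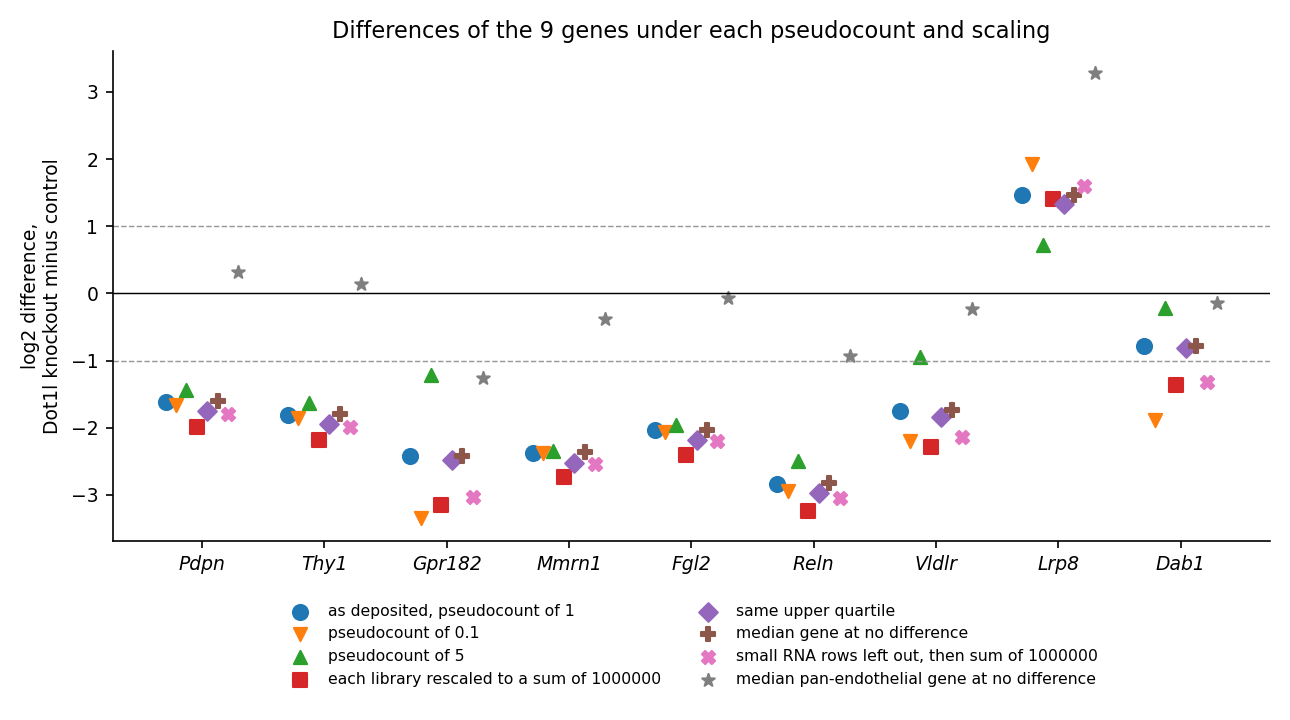
Log2 differences, library labelled Dot1l knockout minus control, of the 9 genes under the deposited scale and 7 alternative pseudocounts and scalings, 1 marker each; dashed lines are 2-fold. The grey stars, for which the median pan-endothelial gene has no difference, lift all 9 genes, turn Pdpn and Thy1 to 0.32 and 0.14, and leave Gpr182 at -1.26 and Lrp8 at 3.28.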

How the data were processed

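A list of gene symbols with 1 value each was used for each library. The authors deposited FPKM values, the unit being taken from the tools named and from the values. STAR 2.5.2b, Cufflinks 2.2.1, Cuffnorm, R 3.3.2 and build mm9 are named in the submitters' processing notes, without roles. Neither the annotation nor any scaling between libraries is stated in these sources. Per the labels' protocols, RNA with an integrity number above 7.0 was made into libraries with the ScriptSeq v2 kit.

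The 9 genes, the gene lists (from which the 9 were left out) and the alternatives were chosen with earlier results of these data known. Differences are log2(FPKM + 1), knockout minus control, for genes that reached 1 FPKM in a library, and folds are ratios of deposited FPKM. Of 305 list genes 304 were matched by symbol. Genes named are the 9, those with a direct link to them, cell type markers fixed by list, and the 3 lowest and 3 highest of each pathway list at 10 FPKM or more. Gp6, Gp9, Vwf, Pf4, Ppbp, Lck, Il7r, Prph, C1qc, Fcer1a, Cd3d, Cd3g, Clu, Lrp3, Sorl1, Ezr, Msn, Itgb3, Emilin3, Ackr1, Ackr4 and Stab2 were named after their values were seen. The same holds for Klf4, Nr2f2, Foxc2, Tbx1, Sox18, Gata2, Maf and Xist. Of the genes the rule names, 2 are not reported here.

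Depth was estimated from steps in low values of genes with a single GENCODE M21 transcript of at least 2500 nt, assuming fragments of 200 nt. Of 175 knockout-labelled and 159 control values of up to 5 fragments, 76.0% and 82.4% lay within 0.1 of a whole number, against a median of 15.51% and 14.1% over the depths scanned. Reads per gene could not be rebuilt throughout, and no count model was used. The steps were checked on simulated data. Python 3.11.15, numpy 2.4.6, pandas 2.3.3, scipy 1.17.1 and matplotlib 3.10.9 were used.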

Additional observations from a re-analysis of the deposited data

How the results depend on the processing

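No paired analysis was possible because there is 1 library of each genotype, and leaving out a replicate could not be tried. Of the 9 genes, 7 lower and 1 higher as deposited became 1 lower with the median pan-endothelial gene at no difference, and 0 higher at a pseudocount of 5 and at 3-fold. At a pseudocount of 5, 6 were lower, and 8 were, Dab1 included, at a pseudocount of 0.1, under both sum scalings and at 1.5-fold. Over all genes, the 2060 lower were 921 at a pseudocount of 5, 3655 with both libraries set to a sum of 1000000, 3110 when small RNAs were left out before that, 290 under the pan-endothelial scaling, 3450 at 1.5-fold and 906 at 3-fold. The 2231 higher were 1323 at a pseudocount of 5, 11181 under the pan-endothelial scaling, 3464 at 1.5-fold and 1298 at 3-fold. The median of all genes moved to -0.35 (sum), -0.16 (sum without small RNAs), -0.13 (upper quartile) and 1.78 (pan-endothelial). The pan-endothelial scaling by construction lifts each gene that is above 0 in the knockout-labelled library, and under it the signs turned for Pdpn (0.32), Thy1 (0.14) and the medians of the other lymphatic surface list (0.071), the lymphatic transcription factors (0.64), the keratinocyte list (0.84) and the melanocyte and Schwann cell list (0.43). The same held for the medians of the Thy1 list (1.49), the EMILIN and multimerin family (0.73), the fibrinogen-related list (1.26) and the skeletal muscle list (0.29). Under the pseudocounts and scalings, 34 log2 differences of the 9 genes moved by less than their counting error, 27 by more without turning, and 2 turned. Depth limits Dab1 above all, and counting intervals leave out variation between embryos and pools.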
